A study of Mus musculus with 2 samples.

Results

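The antibody constant region genes of mouse kidney cells were described in single-cell RNA sequencing (scRNA-seq) of MRL-*lpr* mice. The 10 genes were taken by symbol out of the 31053 genes in the count tables. They were the heavy-chain constant region genes *Ighm*, *Ighd*, *Ighg3*, *Ighg1*, *Ighg2b*, *Ighg2c*, *Ighe* and *Igha*, the kappa light-chain constant region gene *Igkc*, and *Jchain*, which encodes the joining chain. MRL-*lpr* mice are homozygous for a mutation of the death receptor gene *Fas* and develop a lupus-like disease with kidney inflammation as they age, so both ages carry the mutation. Kidneys were pooled for each age, and 1 library was made of old and 1 of young mice. Kidney cells had passed a density gradient, a magnetic enrichment for innate lymphoid cells and a sort of live cells, so the share of B or plasma cells in a library is not their share in the kidney. With 1 library per age there is no replicate, no p-value is given, and a difference between the libraries cannot be told apart from a difference between ages. All intervals are exact 95% intervals (Clopper-Pearson for shares and ratios of counts, Poisson for levels) and cover counting error only.

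Each antibody pairs identical heavy chains with identical light chains. A resting B cell carries IgM and IgD on its surface, both made from one long primary transcript, and class switching moves the same variable region onto a constant region farther along the locus, which sets the isotype. Plasma cells secrete the product in bulk, and the joining chain links IgM and IgA into polymers. In lupus nephritis, IgG against nuclear antigens is deposited in glomeruli, and plasma cells are known to lodge in the inflamed kidney. In mice the *Ighg2c* and *Ighg2a* genes are alternatives that different strains carry at the same place. The count tables have a row for *Ighg2c*, which the reference strain carries, and none for *Ighg2a*, and how transcripts of the MRL allele were assigned was not tested.

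In mm10, the 8 heavy-chain genes lie in a row on the minus strand of chromosome 12, at chr12:113254830-113422730, over 168 kb, in the order *Ighm*, *Ighd*, *Ighg3*, *Ighg1*, *Ighg2b*, *Ighg2c*, *Ighe* and *Igha* in the direction of transcription. *Igkc* lies on the plus strand at chr6:70726435-70726966 and *Jchain* on the minus strand at chr5:88519809-88527891. The 4 IgG genes are close relatives, so their sequences bear on every isotype call below. The last 90 coding bases of their secreted forms, from the reference transcripts, are given 5′ to 3′ in the sense direction. *Ighg2c* is in lower case, and capitals in the other 3 mark the bases that differ from it at the same position.

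Ighg2c, chr12:113287392-113287481: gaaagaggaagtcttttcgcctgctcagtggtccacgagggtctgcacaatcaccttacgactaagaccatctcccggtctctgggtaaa
Ighg2b, chr12:113306392-113306481: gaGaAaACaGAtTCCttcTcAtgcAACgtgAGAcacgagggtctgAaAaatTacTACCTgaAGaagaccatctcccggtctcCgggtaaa
Ighg1, chr12:113328979-113329068: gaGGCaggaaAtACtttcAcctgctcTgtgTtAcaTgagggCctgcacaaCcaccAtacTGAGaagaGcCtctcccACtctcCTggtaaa
Ighg3, chr12:113359668-113359757: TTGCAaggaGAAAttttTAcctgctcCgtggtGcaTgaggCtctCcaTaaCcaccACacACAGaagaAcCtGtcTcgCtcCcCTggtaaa

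The 4 genes can be told apart in this stretch, which lies within 1 exon in each: *Ighg1* differed from *Ighg2c* at 24 of the 90 bases, *Ighg2b* at 28 and *Ighg3* at 32. Over the last 300 coding bases, 76.0% of positions were the same in *Ighg2b* and *Ighg2c*, against 72% in *Ighg1* and 66.3% in *Ighg3*, and no window of 30 bases was shared with *Ighg2c*. Farther from the 3′ end *Ighg2b* and *Ighg2c* come closer. Of 1082 windows of 30 bases over the whole *Ighg2c* transcript, *Ighg2b* held 131 (12.1%), *Ighg3* held 22 (2.03%) and *Ighg1* held 0. The longest run shared by *Ighg2b* and *Ighg2c* had 78 bases, all coding and within 1 exon, and ended 472 bases from the end of both transcripts. It is shown as the longest stretch over which the letters of the reference do not separate the genes:

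Ighg2c, chr12:113287869-113287946, and Ighg2b, chr12:113306869-113306946: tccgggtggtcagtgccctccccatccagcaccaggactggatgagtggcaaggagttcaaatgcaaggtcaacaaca

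The longest such run with *Ighg3* had 41 bases and that with *Ighg1* 28 bases.

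The young library held 15076 barcodes and the old library 12622, of which 11429 and 10232 had at least 200 genes and at most 20% of mitochondrial UMIs and were kept. A UMI is a molecular tag that counts one captured transcript once. Kept cells had a median of 7881 UMIs in the young and 6933 in the old library, and 26 kept barcodes were the same in both. The mice of the study are described as females, yet 50.8% of young and 40.6% of old kept cells held a UMI of a Y-linked gene and none of *Xist*, the RNA of the inactive X chromosome, and 14.6% and 29.1% held the reverse. Results that touch this are also given for each kind of cell. The 10 genes took 127866 UMIs (0.0878% of all) in the young library and 2156206 (1.81%) in the old. *Igkc* had a UMI in 8.80% of young and 64.6% of old kept cells, although few of these cells were B or plasma cells.

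Cells were named by markers that include none of the 10 genes. A B-gated cell had at least 5 of 9 B cell genes, such as *Cd79a* and *Cd79b* of the B cell receptor, *Ms4a1* (CD20) and *Pax5*. A plasma-gated cell had at least 6 of 10 plasma cell genes, such as *Xbp1* and *Prdm1*, which direct the secretory programme, and *Tnfrsf17* (BCMA), a survival receptor. The B gate held 327 young cells (2.86%, 2.56 to 3.18) and 164 old cells (1.6%, 1.37 to 1.87), which carried a median of 7 and 8 of the 9 markers. The plasma gate held 5 young cells (0.0437%) and 54 old cells (0.528%, 0.397 to 0.688), which carried a median of 9 of the 10 markers in both libraries. In each gate the median cell carried 0 markers of T cells, group 2 innate lymphoid cells (ILC2s), NK cells, macrophages and neutrophils, and 1 to 2 of plasmacytoid dendritic and of proximal tubule cells. Plasma-gated cells carried a median of 3 B cell markers, and B-gated cells a median of 2 plasma cell markers. At the threshold itself lay 28 young and 10 old B cells and 0 young and 4 old plasma cells, and 1 marker below it lay 13 and 21 cells for the B and 7 and 18 cells for the plasma gate. Barcodes that met 2 gates were set aside, among them 33 young and 16 old that met the B gate and 2 young and 16 old that met the plasma gate. Of the 5 young plasma cells 4 were called doublets, against 0 of the 54 old plasma cells, and 4 of the 5 were Y-linked cells.

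Old plasma cells used 6 isotypes and were mostly IgG. A cell was given an isotype if it had at least 3 heavy-chain UMIs and at least 50% of them were of 1 isotype, with *Ighm* and *Ighd* pooled. Among the 54 old plasma cells, 36 (66.7%, 52.5 to 78.9) were IgG, 15 (27.8%, 16.5 to 41.6) were IgA and 3 (5.56%, 1.16 to 15.4) were IgM. The IgG cells comprised 12 of IgG3, 12 of IgG2c, 9 of IgG1 and 3 of IgG2b. No cell was led by *Ighe*, which allows up to 6.60% of such cells. The intervals of IgG3 (12 to 35.6), IgG2c (12 to 35.6), IgG1 (7.92 to 29.3) and IgA overlapped, so the order of these 4 is not resolved. In the young library 4 of the 5 plasma cells were IgA, with 8324, 5390, 2941 and 571 *Igha* UMIs, and 1 was IgG2b, with 1348 *Ighg2b* UMIs. The interval of the young IgA share (28.4 to 99.5) overlapped that of the old. Among old plasma cells, 22 of 32 Y-linked and 11 of 15 *Xist* cells were IgG, and 9 of 32 and 3 of 15 were IgA, so both kinds of cell held the mixture of isotypes.

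**Figure D1:**
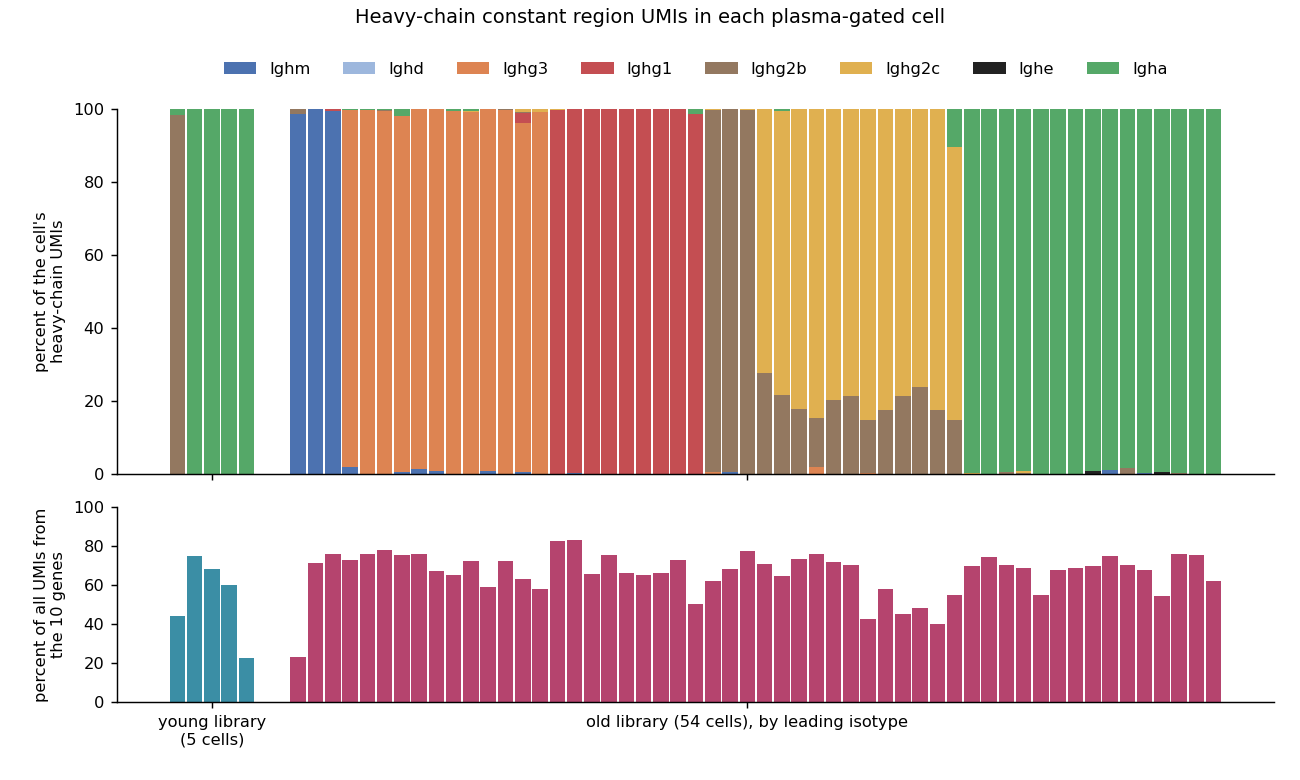
Each column is 1 plasma-gated cell, young at left (5 cells) and old at right (54 cells, sorted by leading isotype). The upper panel gives each heavy-chain gene's percent of the cell's heavy-chain UMIs and the lower panel the percent of all UMIs of the cell that came from the 10 genes. A single colour fills nearly all columns, except in the 12 IgG2c cells, where *Ighg2b* adds a further part.

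Counted by UMI instead of by cell, the isotypes stood in another order, although the order by cell of 4 of them was not resolved. *Ighg1* held 26.7% of the heavy-chain UMIs of old plasma cells, *Igha* 23.7%, *Ighg3* 23.5%, *Ighg2c* 12.6%, *Ighg2b* 9.27% and *Ighm* 4.14%. Of the 30805 *Ighg2b* UMIs, 10346 were in the 12 IgG2c cells and 20245 in the 3 IgG2b cells. The share of *Ighg2b* UMIs is therefore not that of IgG2b cells alone. UMIs tag single molecules at the 3′ end, so they were not divided by transcript length, and differences in capture between genes are not known. The 9 IgG1 cells had a median of 10359 heavy-chain UMIs (4062 to 13059), the 12 IgG3 cells 6024 (3502 to 10736), the 15 IgA cells 4683 (1108 to 12274), and the 12 IgG2c cells 4150 (2347 to 7535). The ranges of all 4 overlapped. *Ighg1* UMIs therefore led with fewer cells than IgG3, IgG2c or IgA.

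Antibody transcripts took up most of the RNA of a plasma cell. The 10 genes gave a median of 69.3% of the UMIs of an old plasma cell, between 22.9% and 83.2%, and 60.1% of a young one, between 22.6% and 75.0%. In B cells of both libraries they gave a small part, 1.68% in the median young B cell. The leading heavy chain held a median of 99.4% of a cell's heavy-chain UMIs in old plasma cells. In old plasma cells *Igkc* ranged from 44 to 55635 UMIs with a median of 19049, and *Jchain* from 121 to 5972 with a median of 1357, and both genes were detected in 54 of 54 cells. The cell with 44 *Igkc* UMIs was an IgM cell that instead held 11932 UMIs of the lambda constant region genes, so 53 of the 54 old plasma cells were led by kappa and 1 by lambda.

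The joining chain was not restricted to the isotypes it links. All 36 old IgG plasma cells held *Jchain*, with between 230 and 4498 UMIs. Relative to the heavy chain, the median was 0.481 *Jchain* UMIs per heavy-chain UMI in the 3 IgM cells, 0.370 in the 15 IgA cells, 0.422 in the 12 IgG2c cells, 0.239 in the 3 IgG2b cells, 0.123 in the 12 IgG3 cells and 0.108 in the 9 IgG1 cells. IgG1 cells (0.0772 to 0.253) and IgM cells (0.339 to 0.522) did not overlap, while IgA cells (0.109 to 0.731) and IgG2c cells (0.0880 to 1.09) spanned most of the range of the others. Light chain exceeded heavy chain in the median old cell of every isotype. The median was 2.50 *Igkc* UMIs per heavy-chain UMI in IgG1 cells, 2.80 in IgA cells, 3.08 in IgG3 cells and 4.92 in IgG2c cells, whose range of 2.88 to 7.71 overlapped the 1.74 to 5.37 of IgG1 cells. Cells of 1 library are not replicates, and these ranges describe cells of the one old pool. Both ratios of IgG2c cells divide by heavy-chain UMIs counted mainly on the reference *Ighg2c* gene. How transcripts of the MRL allele were assigned was not tested, so these ratios may not be a trait of the isotype.

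*Ighg2b* accompanied *Ighg2c*, and not the reverse. All 12 old IgG2c cells held *Ighg2b*, at 346 to 1832 UMIs beside 1998 to 6201 UMIs of *Ighg2c*. This was 15.8% to 38.4% of the cell's *Ighg2c*, with a median of 23.4%, and 24.7% over their summed UMIs. The 3 old IgG2b cells held 6597, 11565 and 2083 UMIs of *Ighg2b* beside 8, 8 and 5 UMIs of *Ighg2c*, or 0.104% of the sum, and the young IgG2b cell held 0 of *Ighg2c*. The leading gene's share was accordingly between 72.2% and 85.1% in IgG2c cells, below that of every other old plasma cell, all of which stood at 95.7% or above. In old B cells the few UMIs had the same arrangement, with 9 *Ighg2b* beside 46 *Ighg2c* UMIs in the 6 IgG2c cells, of which 5 held *Ighg2b*, and 2 *Ighg2c* beside 60 *Ighg2b* UMIs in the 2 IgG2b cells. The reference sequences of these 2 genes share the 78-base run printed above, and its part in these counts was not tested, nor was that of the MRL allele.

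**Figure D2:**
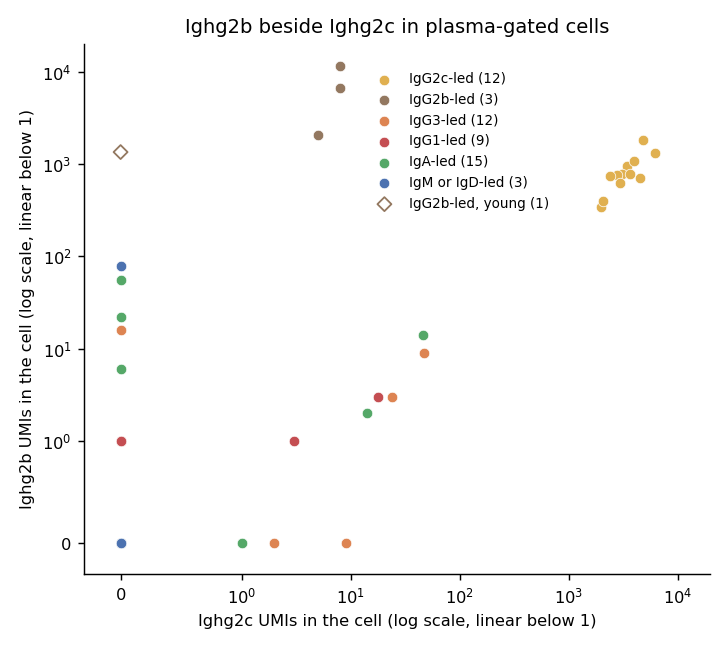
*Ighg2b* UMIs against *Ighg2c* UMIs in each plasma-gated cell, on axes that are logarithmic above 1 UMI and linear below, coloured by leading isotype (old cells as dots, the young IgG2b cell as a diamond). The 12 IgG2c cells form a separate group at 1998 to 6201 *Ighg2c* and 346 to 1832 *Ighg2b* UMIs, while the 3 old IgG2b cells lie at 5 to 8 *Ighg2c* UMIs.

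IgE transcripts were scarce and lay mainly in IgA cells. *Ighe* had 0 UMIs in the young library and 70 in 6 cells of the old. Of these, 53 were in 4 old plasma cells called IgA, which held 38, 9, 4 and 2 *Ighe* UMIs beside 4811, 2170, 4679 and 9222 of *Igha*, and 69 of the 70 were in cells called IgA of any gate. *Ighe* and *Igha* are neighbours in the locus. The most that *Ighe* took of the heavy-chain UMIs of a cell was 14.3%.

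Old plasma cells used many variable segments. The segment with the most UMIs in a cell, at least 3, was taken as its own. Among the 54 old plasma cells, 52 had such an *Ighv* segment and used 32 different ones, and 53 had an *Igkv* segment and used 29. Some segments rested on few UMIs, such as 4 of *Ighv1-55* beside 10337 of *Ighg1* in 1 cell. Another cell held 4 of *Igkv4-74* beside 21966 of *Igkc*. The segments are those of the mm10 reference, and how transcripts of MRL segments were assigned was not tested. No *Ighv* segment led more than 3 cells, and 7 segments each led 3 (*Ighv1-5*, *Ighv1-23*, *Ighv1-55*, *Ighv1-82*, *Ighv5-9-1*, *Ighv5-17* and *Ighv7-3*). The light-chain segment *Igkv12-46* led 4 cells, and 7 others led 3 each, among them *Igkv10-96*, whose 3 cells were IgG3. The 51 cells with both segments held 49 different pairs, and 2 pairs occurred in 2 cells each. *Ighv14-3* with *Igkv10-96* led 2 IgG3 cells, and *Ighv7-3* with *Igkv12-46* led 2 IgG1 cells, of which 1 was Y-linked and the other an *Xist* cell. The joined junctions cannot be read from counts per gene, so a shared pair is not a shared clone. In the young library 3 plasma cells had an *Ighv* segment, and these were 3 different ones.

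Young B cells were almost all unswitched, and by the 50% majority old B cells included switched cells of each IgG isotype and IgA. Of 325 young B cells with a call, 324 (99.7%, 98.3 to 100) were IgM or IgD, and 1 was IgG3, with 21 *Ighg3* UMIs. Of 158 old B cells with a call, 128 (81.0%, 74.0 to 86.8) were IgM or IgD, 18 (11.4%, 6.89 to 17.4) were IgG and 12 (7.59%, 3.99 to 12.9) were IgA, and the intervals of the unswitched share in the libraries did not overlap. The 18 IgG cells were 7 of IgG1, 6 of IgG2c, 3 of IgG3 and 2 of IgG2b. The unswitched share was 68.6% (56.4 to 79.2) in the 70 Y-linked and 89.8% (79.2 to 96.2) in the 59 *Xist* old B cells with a call, and 99.3% and 100% in the young ones. All 12 old IgA B cells were Y-linked. With a majority of 90% of heavy-chain UMIs in place of 50%, the unswitched share of old B cells was 92.0%. That majority kept 103 of 128 unswitched, 5 of 12 IgA, 3 of 7 IgG1 and 1 of 3 IgG3 cells. It kept 0 of 6 IgG2c and 0 of 2 IgG2b cells, so these 2 isotypes had no old B cell under it.

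**Figure D3:**
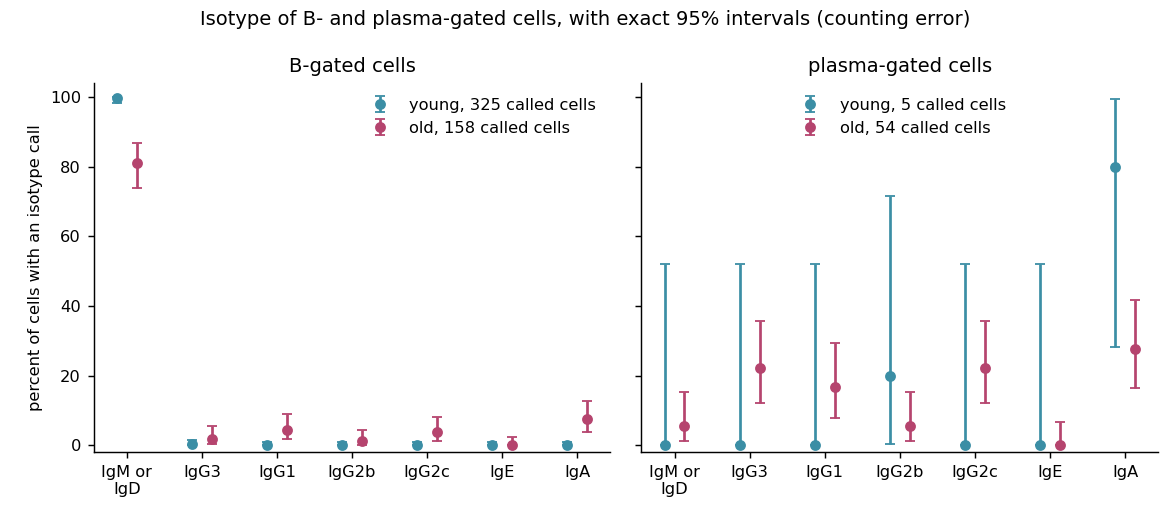
Percent of cells with an isotype call that had each isotype, in B-gated (left) and plasma-gated cells (right) of the young (blue) and old (red) library, with exact 95% intervals for counting error. In B cells the unswitched share is 99.7% in the young and 81.0% in the old library, and the old plasma cells are spread over IgG3, IgG1, IgG2c and IgA.

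Free RNA could itself give a call, so the same rule was applied to proximal tubule cells, which should lack antibody transcripts. In the old library 152 of 3775 proximal tubule cells (4.03%) had enough heavy-chain UMIs for a call and 71 of these were IgG1, 56 IgA and 4 IgG2c, at a median depth of 14728 UMIs. In the young library 17 of 6954 (0.244%) had a call, and all were IgM or IgD. In old B cells 96.3% had a call. Subtracting the free RNA expected from proximal tubule cells left the IgG and IgA shares of B cells at 11.4% and 7.59%. This step could hardly change them, because *Ighg1* and *Igha* were at only 15.4 and 11.6 CPM in old tubule cells. Of 4077 old T cells, at a median depth of 4792 UMIs, 241 (5.91%) had a call. These were 137 of IgM or IgD, 46 of IgA and 39 of IgG1 among others, so free RNA in leukocytes is not excluded. The median heavy-chain UMIs per old B cell were 16.0 in the 7 IgG1, 18.5 in the 12 IgA, 8 in the 6 IgG2c, 29.0 in the 3 IgG3 and 44.5 in the 2 IgG2b cells, and 28.0 in unswitched cells.

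*Ighm* and *Ighd*, the genes of the surface receptor of a resting B cell, were lower in old B cells, and the switched isotypes and *Jchain* were higher. *Ighm* was at 4607 CPM (UMIs per 1000000 UMIs of the summed cells, 4493 to 4723) in young and 2894 CPM (2803 to 2987) in old B cells, a log2 ratio of old over young of -0.67 (-0.73 to -0.61). *Ighd* went from 792 to 474 CPM, a log2 ratio of -0.74 (-0.89 to -0.60), and *Igkc* from 10823 to 9481 CPM, a log2 ratio of -0.19 (-0.23 to -0.16). The median unswitched B cell held 17 *Ighm* UMIs in the young and 22 in the old library, at median depths of 3794 and 5782 UMIs. *Ighd* was held by 79.9% and 81.3% of these cells. The raw count per unswitched cell was thus not lower in the old library. Old unswitched cells were deeper, however, so these counts do not show that their level per UMI was unchanged. In Y-linked cells the log2 ratio of *Ighm* was -1.01 and in *Xist* cells -0.57.

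The switched genes were nearly absent in young B cells. *Igha* had 6 UMIs in young and 516 in old B cells (log2 ratio 6.46, 5.33 to 7.91), *Ighg3* 25 and 300 (3.62, 3.03 to 4.27), and *Jchain*, a gene that B cells start on the way to plasma cells, 1 and 129. *Ighg2b* had 1 and 154 UMIs, a log2 ratio of 7.30 (4.8 to 12.61). *Ighg1* and *Ighg2c* had 0 UMIs in young B cells and 146 and 99 in old. Against a floor of 3 UMIs over the young group this is 49.7-fold and 33.7-fold higher, with no allowance for error of the old counts. Single cells carried much of some sums: 1 cell held 51.7% of the *Ighg3* UMIs of old B cells, and 1 held 56.6% of the *Jchain* UMIs. Over the 3723 genes tested in B cells, 3.73% were at least 2-fold higher and 3.25% at least 2-fold lower in old cells, with a median log2 ratio of -0.08. Of the 8 antibody genes with enough UMIs to be tested, 5 were higher by this measure (*Jchain*, *Igha*, *Ighg2b*, *Ighg1* and *Ighg3*), 0 were lower, and the median was 4.54.

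**Figure D4:**
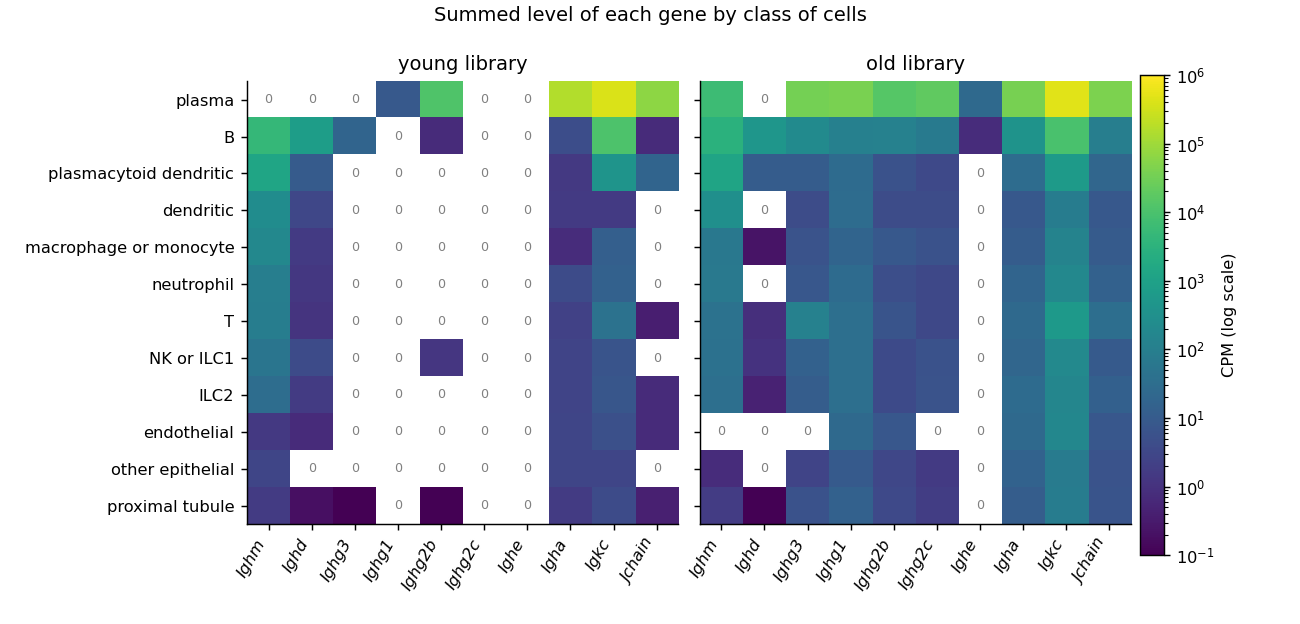
CPM of each of the 10 genes (columns) in the summed cells of each class (rows) of the young (left) and old library (right), on a logarithmic colour scale, where 0 marks classes with no UMI. The columns of the 4 IgG genes are empty or low in all young classes, except *Ighg2b* in plasma cells. In the old library *Ighg1* and *Ighg2b* have a value in every class shown, while *Ighm* is high in plasmacytoid dendritic cells of both libraries.

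Plasma cells and B cells of the old library differed further in the other antibody genes. With the immunoglobulin genes left out of the totals, 17 of 17 genes of antibody folding and secretion were at least 2-fold higher in plasma than in B cells, with a median log2 ratio of 3.66. Of all 2755 genes with at least 100 UMIs, 14.7% were at least 2-fold higher and 25.4% at least 2-fold lower, and their median was -0.32. Examples are *Ssr4*, a subunit of the translocon-associated complex (log2 ratio 4.66), *Hsp90b1*, a chaperone of the endoplasmic reticulum (3.95), *Sec11c*, a signal peptidase subunit (3.66), and *Hspa5*, the chaperone BiP that binds free heavy chains (2.53). The plasma gate itself rests on genes of the secretory programme, so these values are a description. Of the light-chain list, 3 of 4 measurable genes were higher, the lambda constant region genes *Iglc2* (3.76), *Iglc3* (2.71) and *Iglc1* (2.02), and the 1 lambda-led IgM cell described above held 11932 UMIs of these genes.

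Genes of class switching and immunoglobulin receptors had few UMIs in plasma cells. Of 10 genes of class switching and hypermutation with a ratio, 0 were at least 2-fold higher and 7 at least 2-fold lower, with a median of -1.18, among them *Apex1* (-3.42), which cuts abasic sites. Over all 2755 genes tested, 25.4% were at least 2-fold lower. All 10 class switching genes had under 100 UMIs, below the minimum used for that share, and the intervals of 3 of the 7 included 0. *Mir155hg*, the host transcript of miR-155, was at -1.19 and *Rif1*, which shields broken ends, at 0.07. Of 5 receptor genes with a ratio, 4 were at least 2-fold lower, beside the same 25.4% of all genes. Among them were *Fcmr*, the IgM receptor (-5.90), and *Fcgrt*, the neonatal Fc receptor (-2.60). Of these 5, 3 had under 100 UMIs, and the interval of 1 of the 4 included 0. Between the libraries' B cells, *Fcer2a* (CD23, a low-affinity IgE receptor of mature B cells) had a log2 ratio of old over young of -2.17 (-2.55 to -1.81). The ratio of *Vpreb3*, a surrogate light-chain gene, was -1.81 (-2.01 to -1.62), and that of *Mir155hg* 1.32 (0.44 to 2.26). *Mir155hg* had only 16 young and 39 old UMIs, under the minimum of 100. *Fcer1g*, the signalling chain of Fc receptors of myeloid cells, had 57 UMIs in young and 567 in old B cells (3.35, 2.95 to 3.76). Only 1.83% of young and 7.93% of old B cells held it, so these sums lay in few cells. The part of RNA from other cells in this was not tested.

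*Ighm* was also found in leukocytes that are neither B nor plasma cells. Plasmacytoid dendritic cells, which make type I interferon, held *Ighm* at 1342 CPM (1255 to 1432) in the young and 1237 CPM (1163 to 1315) in the old library. At least 1 *Ighm* UMI was seen in 97.5% of 81 young and 95.5% of 66 old such cells, at median depths of 8217 and 11386 UMIs. Proximal tubule cells of the same libraries held *Ighm* at 1.69 and 1.74 CPM, in 1.47% and 2.54% of cells, at median depths of 13257 and 14728 UMIs. Other dendritic cells held 260 and 299 CPM, macrophages or monocytes 183 and 62.3 CPM, neutrophils 97.3 and 66.2 CPM, T cells 92.7 and 44.6 CPM, NK cells or ILC1s 51.5 and 41.6 CPM and ILC2s 31.2 and 36.9 CPM. Each of these levels was above the interval of the proximal tubule cells of its own library. The 17 young and 11 old basophils or mast cells held 0 *Ighm* UMIs, which allows up to 46.1 and 29.4 CPM. Leaving out cells with over 20 UMIs of the 10 genes removed 16 of 81 young and 37 of 66 old plasmacytoid dendritic cells. The remaining cells held *Ighm* at 1293 CPM (1195 to 1397) in the young and 794 CPM (698 to 900) in the old library. At least 1 *Ighm* UMI was seen in 96.9% and 93.1% of them. *Ighm* itself counts toward this cut, so a lower value after it is partly built in.

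In the young library these leukocytes held more *Ighm* than *Igkc* UMIs, and B cells held fewer. Plasmacytoid dendritic cells held 898 *Ighm* beside 280 *Igkc* UMIs, macrophages or monocytes 243 beside 17, other dendritic cells 165 beside 1, neutrophils 73 beside 11, ILC2s 291 beside 68 and T cells 247 beside 114. B cells held 6213 beside 14595, and proximal tubule cells 193 beside 444. In the old library plasmacytoid and other dendritic cells still held more *Ighm* than *Igkc*, with 1042 beside 544 and 72 beside 21, while T cells held 1029 beside 12906 and macrophages or monocytes 264 beside 581. The median plasmacytoid dendritic cell held 1 of the 9 B cell markers in both libraries, and 3 or more were held by 0 young and 2 old such cells. Tags at the 3′ end do not tell a transcript with a variable region from one without.

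**Figure D5:**
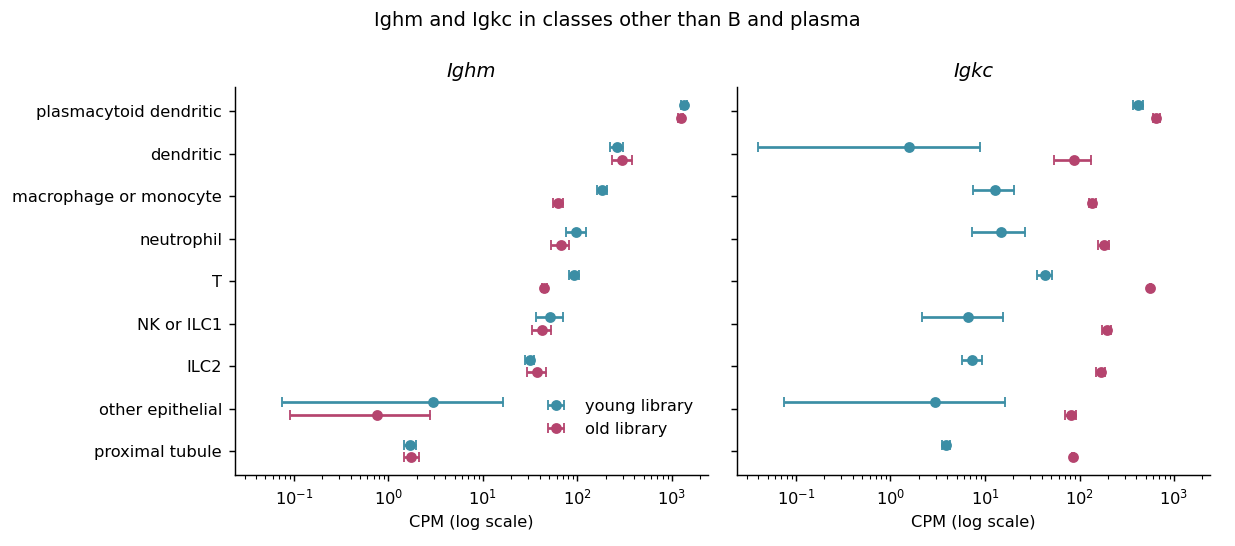
*Ighm* (left) and *Igkc* (right) in CPM on a logarithmic axis for 9 classes other than B and plasma cells, with exact 95% Poisson intervals, young in blue and old in red. Basophils or mast cells, which held 0 *Ighm* UMIs, are not shown. *Ighm* in the 7 leukocyte classes shown lies above that of proximal tubule cells in both libraries, whereas old *Igkc* lies at 80.8 CPM or above in every class shown.

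In the old library antibody RNA was found in all classes of cells. Proximal tubule cells held *Igkc* at 3.88 CPM (3.53 to 4.26) in the young and 85.7 CPM (83.5 to 87.9) in the old library, a log2 ratio of 4.47 (4.33 to 4.61), and 5.28% and 67.2% of cells held a UMI of it. At a fixed 1000 UMIs per cell (432 shallower young and 111 shallower old cells had to be dropped), these shares were 0.598% (0.426 to 0.817) and 11.5% (10.5 to 12.6). Thinned in the same way, old ILC2s were at 16.3% (12.7 to 20.4), old macrophages or monocytes at 11.7% (8.26 to 16.0) and old T cells at 23.0% (21.7 to 24.4). At this fixed depth old ILC2s and T cells stood above the proximal tubule interval and macrophages or monocytes did not. As counted, *Igkc* was in 50.8% of old ILC2s, 60.8% of T cells and 72.3% of macrophages or monocytes, against 67.2% of proximal tubule cells. Their median depths were 5335.5, 4792, 12482.5 and 14728 UMIs, so the order depends on how depth is treated. In young T cells the thinned share was 4.31% (2.72 to 6.45), above that of young proximal tubule cells, and in young ILC2s 0.722% (0.374 to 1.26). The log2 ratio in proximal tubule cells was 4.47 in Y-linked and 4.02 in *Xist* cells.

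Free antibody RNA of old proximal tubule cells was switched, as were the plasma cells, but in other proportions. Their heavy-chain UMIs were 38.5% *Ighg1*, 28.9% *Igha*, 15.0% *Ighg3*, 8.63% *Ighg2b*, 4.56% *Ighg2c* and 4.44% *Ighm*. In old plasma cells *Ighg1* was at 26.7% and *Ighg2c* at 12.6%, so *Ighg1* stood higher and *Ighg2c* lower in tubule cells. Among tubule cells with at most 20 UMIs of the 10 genes the intervals (37.2 to 41.0 and 3.63 to 5.25) did not reach the plasma cell values. Those plasma cell values rest mainly on 9 IgG1 and 12 IgG2c cells, and the intervals do not cover the spread between cells. *Ighd* had 22 UMIs in young and 2 in old tubule cells, and *Ighm* stayed at 1.69 and 1.74 CPM. Over the 12593 genes tested in proximal tubule cells, 3.53% were at least 2-fold higher and 2.25% at least 2-fold lower in the old library. Of 8 antibody genes tested, 7 were higher and 0 lower (*Ighm* alone was not higher), with a median log2 ratio of 5.29 against 0.01 over all genes. *Ighg1* and *Ighg2c* had 0 UMIs in young tubule cells and 1030 and 122 in old, or 586-fold and 69.4-fold higher against the same floor. In the young library the heavy-chain UMIs of tubule cells were 46.6% *Ighm* and 46.6% *Igha*.

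Most antibody UMIs lay in few barcodes. Plasma cells held 55.3% of the UMIs of the 10 genes in the young and 69.3% in the old library, B cells 17.1% and 0.849%, and barcodes that met 2 gates 23.6% in both. At least 10% of UMIs came from the 10 genes in 7 young and 93 old barcodes. The 93 old ones were 25 of IgA, 23 of IgG2c, 19 of IgG1, 16 of IgG3, 7 of IgM and 3 of IgG2b, and 19 of them had met neither the plasma nor the B gate nor 2 gates. One was T-gated and held 2394 of the 2669 *Ighg3* UMIs of the old T cells.

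Across the 27 combinations of class and library with at least 5 cells, the genes whose log level ran most like *Igkc* were *Mzb1* (Pearson's r = 0.87), *Ly6k*, *2010007H06Rik*, *Oosp1* and *Pou2af1* (0.81). For *Jchain* they were *Tnfrsf17* (0.88), *Oosp1*, *Derl3*, *Pkd2l2* and *Kcnmb4os2* (0.80), and for *Ighm* they were *Gpr18* (0.88), *AC133103.1*, *Hpse*, *Zc3h12d* and *A530040E14Rik* (0.83). *Mzb1*, *Pou2af1*, *Tnfrsf17* and *Derl3* are markers of the plasma gate, and the points share their library and its free RNA, so these values are a description over 14357 genes ranked.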

How the data were processed

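Single-cell counts of kidney cells from 1 old and 1 young MRL-*lpr* library were used. The counts deposited by the authors are raw UMIs per gene and barcode, made from 10x 3′ v3.1 libraries with Cell Ranger (version 3 per the labels, 3.1.0 in the file headers) on mm10, without normalization. Total counts were 156787812 UMIs in the young and 126334256 in the old library, before filtering. Reads that match several genes are commonly dropped by such counting, which could lower counts of close relatives. The flow cytometry of the study was not analysed here.

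Barcodes under 200 genes or over 20% of mitochondrial UMIs were removed. Each barcode took the class with the highest share of its markers detected, and was set aside where a class of another lineage reached 50% of its own. Doublets were called with Scrublet in Scanpy 1.11.5 and kept. Clusters were made with Seurat 5.3.0 (2000 variable genes, 20 integration dimensions, 10 principal components, resolution 0.8) as an alternative to the gates. Levels are CPM of summed UMIs, with Python 3.11.15, NumPy 2.4.6, SciPy 1.17.1, pandas 2.3.3 and R 4.3.3, and figures with Matplotlib 3.10.9. Genes were compared where both groups together had at least 100 UMIs. Shares of cells were thinned to 1000 UMIs. The scripts were tested on simulated data. Sequences and positions are from the mm10 reference annotation.

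The 10 genes and all lists were chosen with earlier results of these data known, and the gate thresholds after the marker counts had been seen. All 10 genes are named, with the 4 genes of each list that had the highest CPM in B or plasma cells, the 3 variable segments that led the most plasma cells, with ties, and, for 3 of the 10, the 5 genes most alike in log2(CPM + 1). Single values of some genes of the class switching list are not reported here. Gates, clusters, doublets, call rules, filters, thinning and totals were varied.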

Additional observations from a re-analysis of the deposited data

Results flagged for a closer look

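The barcodes that failed the filters on genes or mitochondrial UMIs, which entered no comparison, also held antibody RNA. The 3647 failed barcodes of the young library held 1231 UMIs of the 10 genes (110 CPM, 104.4 to 117), of which 756 were *Igkc* and 388 *Ighm*, and 5.59% of them held at least 1. The 2390 failed barcodes of the old library held 6274 UMIs (882 CPM, 860 to 904), of which 4315 were *Igkc*, 1061 *Ighg1* and 53 *Ighm*, and 63.9% held at least 1. Both totals were above the limit of 3 UMIs that a count of 0 allows.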

How the results depend on the processing

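Clusters named from the markers put 114 young and 139 old cells in the plasma class, in place of 5 and 54, of which 5 and 51 were plasma-gated. In each other gate among them the median cell held at most 0.195% of antibody UMIs, except 32.5% in the old barcodes of 2 lineages. The IgA share of young plasma cells was then 11.1%. *Igkc* came to 41358 CPM in young and 352177 CPM in old plasma cells, 10515 and 34654 CPM in B cells, and 5.89 and 207 CPM in proximal tubule cells, and *Ighm* to 4396 and 2641 CPM in B cells. Without doublets 1 young plasma cell was left, an IgA cell (IgG 0%, IgA 100%, *Igkc* 430259 CPM). Counting every old barcode with at least 10% of antibody UMIs, an alternative chosen after seeing the data, gave 93 cells in place of 54 plasma cells. A 90% majority gave an unswitched share of old B cells of 92.0%, Y-linked cells gave 68.6% and *Xist* cells 89.8%, and young *Xist* B cells gave 100%.

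With antibody genes out of the totals, *Igkc* was at 11045 CPM in young and 9648 CPM in old B cells, and at 1067070 and 1564450 per 1000000 other UMIs in plasma cells. As the mean of each cell's CPM, *Igkc* was at 11681 and 10342 CPM in young and old B cells, 346006 and 469089 CPM in plasma cells and 10.0 and 149 CPM in proximal tubule cells, and *Ighm* at 4941 and 3468 CPM in B cells. By that mean, the log2 ratio of old over young was -0.51 for *Ighm* in B cells, 3.90 for *Igkc* in proximal tubule cells, and -0.16 for *Ighg2b* in plasma cells, where summed UMIs gave 0.23, and the cause of this reversal was not tested. The *Ighm* ratio in B cells was -1.01 in Y-linked and -0.57 in *Xist* cells, and in *Xist* cells that of *Igkc* was -0.068 in B and 4.02 in proximal tubule cells. The share of proximal tubule cells with *Igkc* was 0.331% and 6.23% at 500 UMIs, 0.844% and 18.6% at 2000 UMIs, and 5.28% and 67.2% without thinning. A gene minimum of 500, a mitochondrial limit of 10%, 1 marker more, 10 heavy-chain UMIs and barcodes of 2 lineages moved none of the main results beyond their intervals or 1.5 times. No paired analysis was possible because each age has 1 library, and no replicate could be left out. The young plasma cells are limited by their number, 5 cells.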
